A study of Mus musculus with 24 samples.

Results

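The genes of the mitochondrial ribosomal proteins were followed in C2C12 cells, a line of mouse skeletal myoblasts, as they became myotubes. Members were taken by symbol. A probe set counted if the annotation of the array gave it a single gene whose symbol begins with Mrpl or Mrps and a digit, and where a gene had several, the one with the highest mean over all arrays stood for it. This gave 76 genes of the 18194 genes with a probe set of their own. All 76 reached a mean intensity of at least 100 at 1 time point or more, the level asked of every gene tested, as did 7905 genes in all. Mrps11 and Mrpl55 came closest to that limit, with a highest time point mean of 154 and 161, and no gene of the family fell outside it. Mrpl30 and Mrpl53 were on the array only with probe sets shared with another gene, so they are not among the 76.

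RNA was measured on 24 Affymetrix arrays, 3 for each of 8 time points. Day -1 was growing myoblasts at 50% confluency in medium with 10% serum, and Day 0 was the same cells at 90% confluency. The time points 6 hours, Day 1, Day 2, Day 3, Day 4 and Day 5 followed the change to reduced serum, which the labels give as 2%. The study's paper states another percentage in its results section, so the serum level is not settled. All samples were of this 1 cell line and carried no other treatment, and confluency and time cannot be told apart between Day -1 and Day 0. The labels number the replicates and do not say that they were separate cultures. A p-value here weighs a difference against the spread within time points, pooled over all 24 arrays. That spread may be technical.

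Mitochondria keep a small genome of their own, and the few proteins it encodes are core subunits of the respiratory chain and of ATP synthase. They are made on the mitochondrial ribosome, whose rRNAs come from the mitochondrial genome and whose proteins are encoded in the nucleus and imported. Some of these proteins descend from those of the bacterial ribosome, and others were added in the mitochondrial lineage. Symbols with Mrpl stand for the large subunit, which holds the peptidyl transferase centre, and symbols with Mrps for the small subunit, which reads the mRNA. A few names mislead, since the products of Mrps30 and Mrps18a sit in the large subunit and that of Mrps36 belongs to the 2-oxoglutarate dehydrogenase complex. By this sorting the 76 members were 29 conserved and 20 mitochondria-specific proteins of the large subunit, 16 conserved and 10 mitochondria-specific proteins of the small subunit, and Mrps36.

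The members lie on 17 chromosomes, with at most 11 on 1 of them, and Mrpl46 and Mrps11 were the 1 neighbouring pair. RefSeq promoters (GRCm38.p6, 250 bases before to 50 after a start site) were at hand for 67 of the 76 genes, as 73 promoters. They were searched on both strands for 5 short motifs of factors known for housekeeping or mitochondrial genes. The GABP/ETS motif (CCGGAAGT) was in 16.4% of the 73 against 3.89% of all 32851 promoters, the YY1 motif (AAGATGGCG) in 11.0% against 1.40%, and the NRF1 motif (GCGCATGCG) in 9.59% against 1.75%. The SP1 motif (GGGCGG) was in 53.4% against 35.7% and the E-box (CACGTG), which Myc can bind, in 9.59% against 7.15%. Some genes have several promoters, and the 7 with an E-box belong to 5 of the 67 genes. The 39 with the SP1 motif belong to 34 genes. The shares describe letters in a window and say nothing of binding. The 4 promoters printed here belong to members among the 8 largest falls from Day -1 to Day 5, and were picked because each shows a different motif or arrangement. Only bases before the start site are given, on the strand of the gene, 5′ to 3′, with the motif matches in capitals. Mrpl18 (chr17:12916092-12916341, minus strand) holds the GABP/ETS motif and 1 SP1 motif, and Mrps11 (chr7:78783011-78783130, plus strand) holds YY1 and SP1. Mrpl20 (chr4:155802758-155802877, plus strand) holds the E-box, and Mrps6 (chr16:92058216-92058335, plus strand) holds 4 SP1 matches, of which the first and the next overlap.
Mrpl18: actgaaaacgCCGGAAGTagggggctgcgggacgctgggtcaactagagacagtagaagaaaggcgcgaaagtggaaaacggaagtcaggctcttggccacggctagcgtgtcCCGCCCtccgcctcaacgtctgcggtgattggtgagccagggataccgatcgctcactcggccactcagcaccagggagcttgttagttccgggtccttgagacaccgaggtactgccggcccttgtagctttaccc
Mrps11: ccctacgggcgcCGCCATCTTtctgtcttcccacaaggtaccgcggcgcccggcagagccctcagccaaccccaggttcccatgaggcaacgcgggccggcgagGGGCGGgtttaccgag
Mrpl20: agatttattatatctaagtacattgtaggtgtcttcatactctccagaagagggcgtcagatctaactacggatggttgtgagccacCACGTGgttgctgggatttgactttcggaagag
Mrps6: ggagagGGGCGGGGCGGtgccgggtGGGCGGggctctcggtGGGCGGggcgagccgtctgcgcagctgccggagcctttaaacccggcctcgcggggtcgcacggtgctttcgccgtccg

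Markers of the cells ran only in part as the labels say. Myog, the myogenic factor of differentiating myoblasts, rose from a mean intensity of 404 on Day -1 to 2621 on Day 0 and 10050 on Day 4. The summed level of 6 myotube markers, Myog among them, was 1301 on Day -1, 12136 on Day 0 and 45229 on Day 5. It had thus risen by Day 0, which the labels call myoblasts. The 3 myoblast markers did not fall from Day -1 to Day 5 (Myod1 681 to 1064, Myf5 630 to 1189, Des 1650 to 2108). Of 17 listed markers of adipocytes, osteoblasts, macrophages and endothelium 14 had a probe set of their own and none reached the level, the highest being Dmp1 with 56.2 on Day 1. The summed level of 4 proliferation markers (Mki67, Top2a, Mcm5 and Pcna) was 13923 on Day -1, 8639 on Day 0, 13827 at 6 hours and 9483 on Day 1, and then fell to 2548 on Day 5. Arrays of 1 time point correlated with an r between 0.966 and 0.996. The number of arrays limits the precision.

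The members moved together within time points as well as between them. As a measure, the deviation of each gene from its time point mean was taken on each array, and the median over the 76 members lay between -0.29 and 0.41 on the log2 scale, against -0.05 and 0.03 for all 7905 genes. On replicate 2 of 6 hours all 76 members lay above their mean, with a median of 0.35, and on replicate 2 of Day 2 and replicate 3 of Day 5 it was 75 of 76, with medians of 0.41 and 0.38. On replicate 2 of Day -1 and on replicate 2 of Day 5 the medians were -0.29 and -0.27, with 1 and 0 members above the mean. The median of 72 oxidative phosphorylation subunits deviated in the same direction on 23 of the 24 arrays, between -0.24 and 0.35, and that of 40 cytosolic ribosomal proteins on 22, between -0.09 and 0.12. For RNA quality, the log2 ratio of 3′ to 5′ control intensity was -0.48 to -0.34 for Gapdh and 0.18 to 0.34 for Actb. In 6 of the 8 time points the array with the highest members also had the highest Gapdh ratio, and these 6 include replicate 2 of 6 hours (-0.40, the others -0.42 and -0.41), replicate 2 of Day 2 (-0.38, the others -0.41 and -0.44) and replicate 3 of Day 5 (-0.40, both others -0.48). The Actb ratio was lowest on the array with the highest members in 5 of the 8 time points, Day 2 and Day 5 among them. On that array of Day 2 and of Day 5 the Gapdh and Actb ratios thus lay in opposite directions. On the array with the lowest members, the Gapdh ratio was lowest in 4 of the 8 time points and the Actb ratio highest in 4. The part of RNA quality in this shared spread was not tested. Several counts below rest on single arrays, which are named beside each count.

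**Figure D1:**
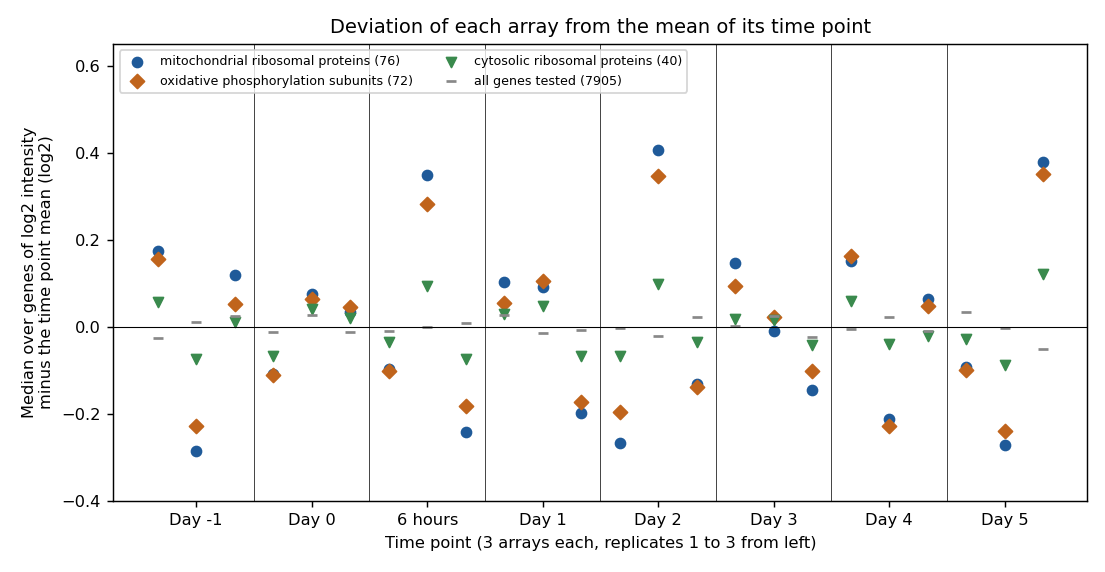
Deviation of each array from the mean of its time point: on the y axis, the median over genes of the log2 intensity minus the time point mean; on the x axis, the 24 arrays. Circles stand for the 76 mitochondrial ribosomal protein genes and the other symbols for 72 oxidative phosphorylation subunits, 40 cytosolic ribosomal proteins and all 7905 genes; the circles run from -0.29 to 0.41 and all genes stay within -0.05 and 0.03.

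The course of the median member had a high point on Day 0 and low points on Day 2 and Day 5. Relative to each gene's Day -1 mean, it stood at 0.29 ± 0.11 (SD, n = 3 arrays) on Day 0 on the log2 scale, -0.15 ± 0.28 at 6 hours and -0.07 ± 0.15 on Day 1. The value was -0.46 ± 0.34 for Day 2, -0.41 ± 0.10 for Day 3 and -0.15 ± 0.12 for Day 4, and it ended at -0.46 ± 0.31. The arrays of Day 0 (0.16, 0.37 and 0.32) lay above those of Day 3 (-0.30, -0.43 and -0.50) without overlap, while those of Day 2 (-0.72, -0.07 and -0.59) and Day 5 (-0.57, -0.69 and -0.11) were widely spread. By mean level, 56 of the 76 members were highest on Day 0, and 36 were lowest on Day 2 and 17 on Day 5. The Gapdh ratio was highest in the mean of Day 0 (-0.39 ± 0.05, SD, n = 3 arrays) and lowest in that of Day 5 (-0.45 ± 0.05), as the median member was high and low there, and on Day 2, the other low point, it was -0.41 ± 0.03, as on Day -1 (-0.41 ± 0.06). The Actb ratio was highest on Day 5 (0.31 ± 0.04) and lowest at 6 hours (0.23 ± 0.02), with 0.24 ± 0.01 on Day 0 and 0.28 ± 0.04 on Day 2. The part of RNA quality in the course was not tested. In bulk RNA, fewer cells of a kind and less RNA per cell cannot be told apart.

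The F test over 8 time points called 65 of 76 members (limma, adjusted p under 0.05), that is 85.5%, against 89.4% of all genes tested, so a call on this test was no more common among the members than elsewhere. The range of the 8 means was at least 2-fold in 25 members (32.9%) against 43.9% of all genes, with a median of 1.77-fold against 1.88-fold. The 11 members not called were Mrpl9, Mrpl39, Mrpl41, Mrpl44, Mrpl52, Mrpl57, Mrps14, Mrps17, Mrps18c, Mrps21 and Mrps33.

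**Figure D2:**
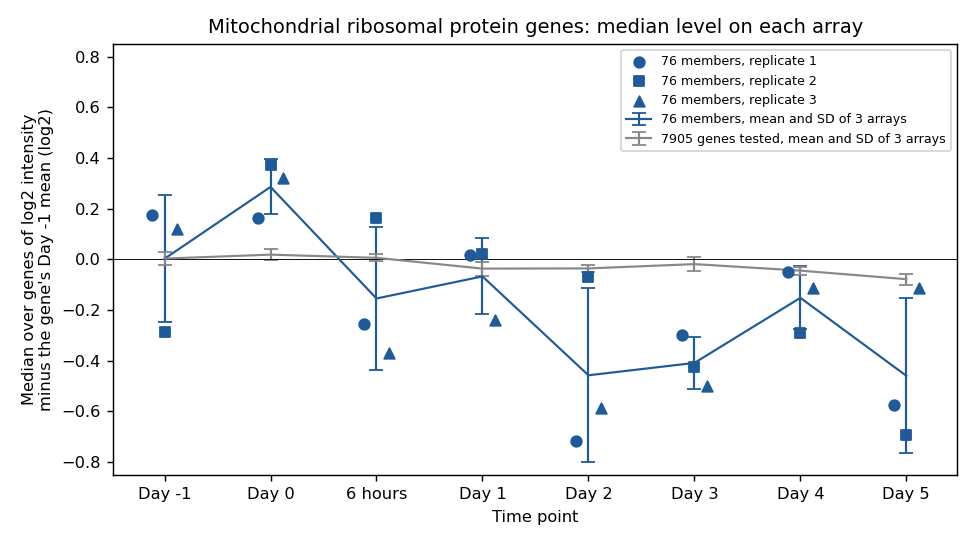
Median level of the 76 mitochondrial ribosomal protein genes on each array, as the log2 intensity minus each gene's Day -1 mean (y axis), by time point (x axis). Symbols are the 3 arrays, the blue line and bars their mean and SD, and the grey line and bars the same for 7905 genes; the blue line runs from 0.29 on Day 0 to -0.46 on Day 2 and Day 5.

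**Figure D3:**
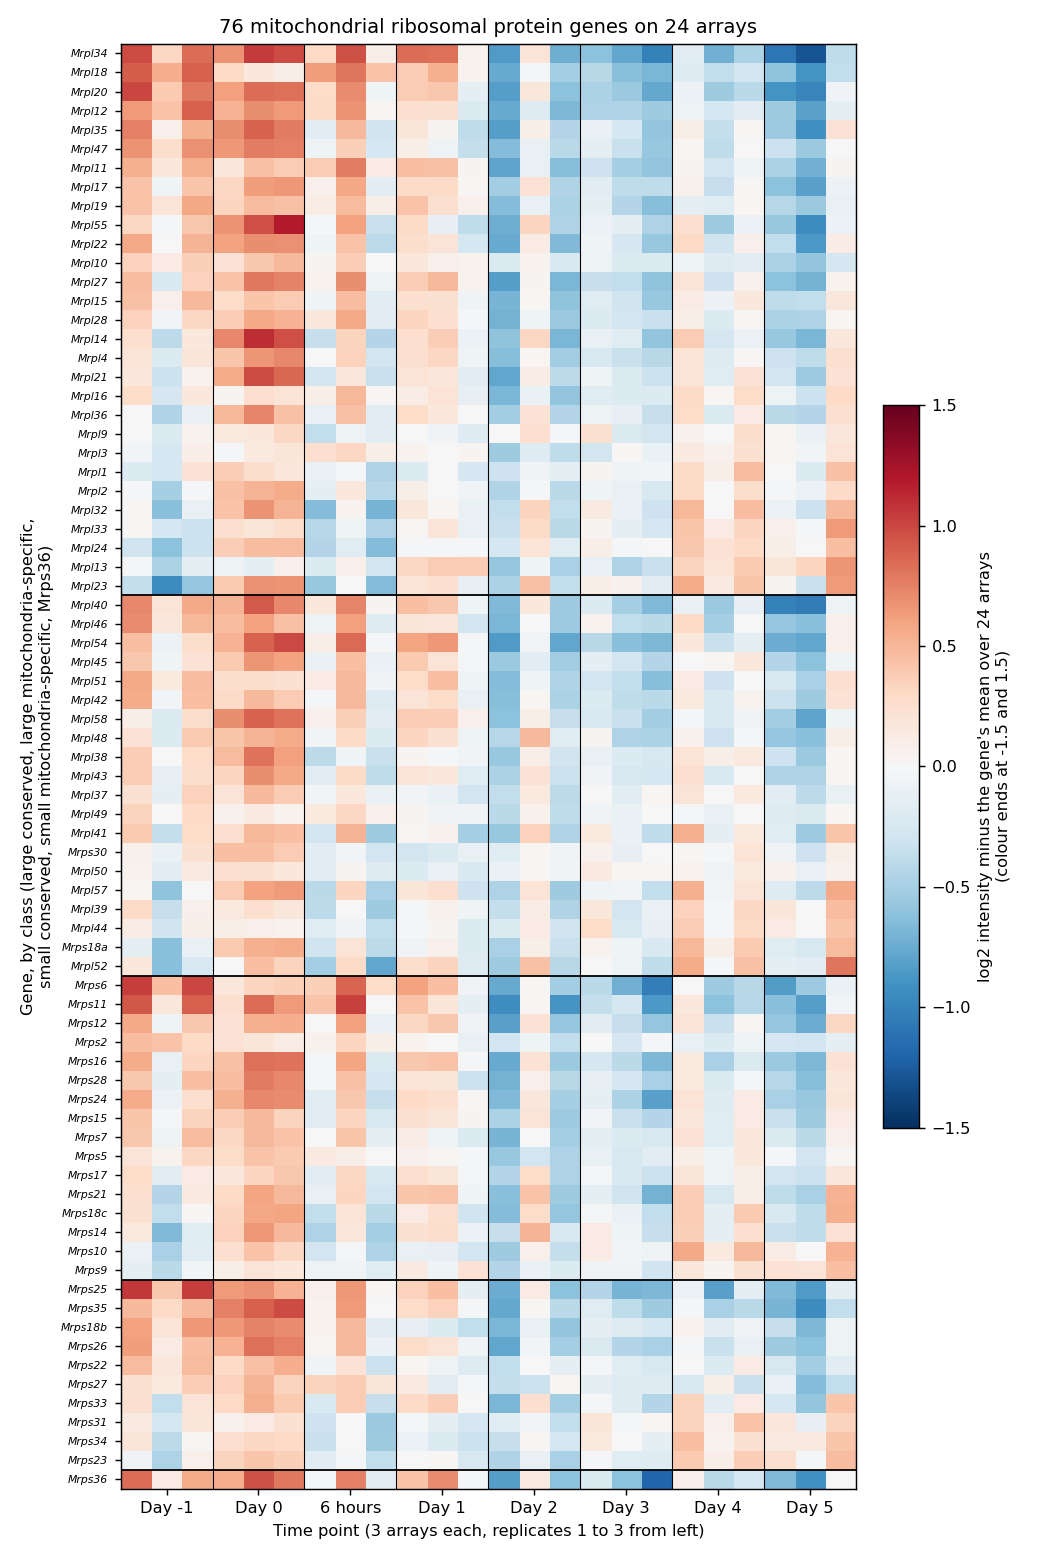
The 76 genes (rows, grouped by class) on 24 arrays (columns), as the log2 intensity minus the gene's mean over all arrays. Most genes are above their mean on Day 0 and below it on Day 2 and Day 5, and replicate 2 of 6 hours, replicate 2 of Day 2 and replicate 3 of Day 5 differ from the other arrays of their time point.

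Between Day -1 and Day 0, as the cells filled the dish, 18 members rose and 1 fell (limma, one fit of 8 time points, adjusted p under 0.05), where 25.2% of all genes rose and 21.5% fell. The share that rose was thus near the background. The median change was 0.29 on the log2 scale against 0.02 for all genes, and 67 of 76 members were higher on Day 0. The 3 arrays of each day did not overlap for 31 members that were higher on Day 0 and 3 that were lower, against 32.6% and 28.9% of all genes. Mrpl24, a conserved protein of the large subunit, had the lowest adjusted p. Its intensities of 1129, 903 and 1112 on Day -1 rose to 1792, 1905 and 1913 on Day 0, a 1.79-fold rise (log2 0.84, SE 0.14, adjusted p = 5.31e-05). Mrpl23, whose bacterial counterpart lies at the exit of the peptide tunnel, rose from 562, 375 and 481 to 949, 1161 and 1149 (2.32-fold, adjusted p = 0.000512). Mrpl2, a conserved protein at the core of the large subunit, rose from 899.7, 651 and 909.5 to 1248, 1308 and 1351 (1.61-fold, adjusted p = 0.00133). In these 3 genes every Day 0 array lay above every Day -1 array. Replicate 2 of Day -1 was below the mean of its day for 75 of the members, and without it 9 members passed, with a median change of 0.13.

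Mrpl18 was the 1 member called lower on Day 0. Its bacterial counterpart binds 5S rRNA. Intensities of 1467, 1146 and 1453 on Day -1 fell to 967, 876 and 842 on Day 0 (1.51-fold lower, log2 -0.59, SE 0.17, adjusted p = 0.00852), with no overlap. At 6 hours they were 1205, 1369 and 1057, a log2 rise of 0.43 that just passed (adjusted p = 0.0484). That rise lost the threshold when any 1 of 16 arrays was left out (adjusted p of 0.0506 to 0.146). Mrps6 had means of 1716, 1156 and 1367 at the same time points, with neither step past the threshold (adjusted p = 0.0737 and 0.481).

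In the first 6 hours in reduced serum 36 members fell and 1, Mrpl18, rose, where 23.6% of all genes fell and 21.5% rose. The median change was -0.48 against -0.01 for all genes. Arrays did not overlap for 40 members that were lower at 6 hours and 1 that was higher, against 29.2% and 29.1% of all genes. Mrpl24 returned to 1022, 1218 and 884, around its Day -1 intensities (1.81-fold lower than on Day 0, log2 -0.86, SE 0.14, adjusted p = 5.69e-05). Mrpl38, a mitochondria-specific protein of the large subunit, fell from 693, 881 and 765 to 381, 477 and 395 (1.87-fold, adjusted p = 0.000136). Mrps30 fell from 918, 920.1 and 873 to 596, 653 and 549 (1.51-fold, adjusted p = 0.000255). In these 3 genes all 6 hour arrays lay below all Day 0 arrays. Mrpl14, a conserved protein at the face between the subunits, had the largest fall by log2 change (-1.08), from 776, 1011 and 917 to 372, 594 and 347. The count depended on single arrays. It was 20 without replicate 2 of Day 0, 20 without replicate 3 of Day 0, 19 without replicate 1 of 6 hours and 15 without replicate 3 of 6 hours, and 54 without replicate 2 of 6 hours, the array on which all members were high.

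From 6 hours to Day 1, 2 members rose and 0 fell, where 12.3% of all genes rose and 14.1% fell. Mrpl13, a conserved protein of the large subunit, went from 1760, 2138 and 1677 to 2503, 2635 and 2614 (1.40-fold, log2 0.48, SE 0.15, adjusted p = 0.0222). Its arrays of Day 1 were all above those of 6 hours. Mrpl24 went from 1022, 1218 and 884 to 1356, 1373 and 1352 (1.32-fold, adjusted p = 0.0354), also without overlap. Of the other probe sets of Mrpl13, 1 also passed (log2 0.35, adjusted p = 0.0466) and 1 did not (0.16, adjusted p = 0.55). Mrpl13 lost the threshold without replicate 1 or 3 of 6 hours or replicate 2 or 3 of Day 1 (adjusted p of 0.0619 to 0.0958), and Mrpl24 without replicate 1 or 3 of 6 hours or any array of Day 1 (0.074 to 0.181). The count was 0 without replicate 1 or 3 of 6 hours or replicate 2 or 3 of Day 1, 1 without replicate 1 of Day 1 and 4 without replicate 2 of 6 hours. Without overlap, 3 members were higher and 4 lower, against 18.4% and 26.0% of all genes. The median change was 0.08, and it was -0.063 without replicate 3 of 6 hours and -0.00046 without replicate 2 of Day 1.

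Between Day 1 and Day 2, 22 members fell and 0 rose, where 21.4% of all genes fell and 23.5% rose. The median change was -0.37 against 0.00 for all genes, and 4 of 76 members were higher on Day 2. Arrays did not overlap for 12 members that were lower on Day 2 and 1 that was higher, against 24.3% and 26.6% of all genes, so this measure was below the background in both directions. Mrpl13 lost what it had gained, from 2503, 2635 and 2614 to 1357, 1935 and 1448 (1.66-fold lower, log2 -0.73, SE 0.15, adjusted p = 0.000685). Its other probe sets were at -0.46 (adjusted p = 0.00676) and -0.20 (adjusted p = 0.413). Mrps5, whose bacterial counterpart lies where mRNA enters the small subunit, fell from 171, 167 and 160.5 to 110.5, 134 and 119 (1.38-fold, adjusted p = 0.000877). Mrpl18 fell from 1021, 1131 and 813 to 464, 774 and 550.2 (1.68-fold, adjusted p = 0.00163). None of these 3 overlapped between the days. Mrpl34, a small conserved protein of the large subunit, had the largest fall, from 608, 606 and 352 to 189, 391 and 204 (2.05-fold, adjusted p = 0.00884). Its replicate 3 of Day 1 lies below replicate 2 of Day 2, and without replicate 1 of Day 2 its adjusted p was 0.0569. Over all members the count was 47 without replicate 2 of Day 2 and 7 without replicate 1 of Day 2, and 12, 12 and 13 without replicate 1 of Day 1, replicate 2 of Day 1 and replicate 3 of Day 2.

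After Day 2 no member passed the threshold between neighbouring days. From Day 2 to Day 3 limma made 0 calls among the members, where 3.21% of all genes rose and 3.29% fell. Without overlap, 3 members were higher and 0 lower, against 14.0% and 9.80% of all genes. The lowest adjusted p was that of Mrps5 (0.115), with 110.5, 134 and 119 and then 152, 138 and 147. From Day 3 to Day 4 limma made 0 calls, where 0.316% of all genes rose and 0.683% fell. Here 74 of 76 members were higher on Day 4, all but Mrpl50 and Mrps2, with a median change of 0.28 against -0.06 for all genes. Without overlap, 24 members were higher on Day 4 and 0 lower, against 7.32% and 13.8% of all genes. Mrpl13, with 1878, 1472 and 1605 and then 2545, 2334 and 2665, missed the threshold (log2 0.61, adjusted p = 0.0503). The count was 1 without replicate 2 of Day -1, 6 hours, Day 2 or Day 4, without replicate 1 of Day 3 or Day 5, or without replicate 3 of Day 5.

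From Day 4 to Day 5 limma made 0 calls, where 1.42% of all genes rose and 2.29% fell. All members but Mrpl13 and Mrps9 were lower on Day 5, with a median of -0.26 against -0.05. Without overlap, 5 members were lower on Day 5 and 0 higher, against 10.5% and 4.52% of all genes. The lowest adjusted p was that of Mrpl38 (0.131), with 574, 533 and 555 and then 402, 339 and 508. Without replicate 3 of Day 5 the median was -0.45 and 1 member passed.

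**Figure D4:**
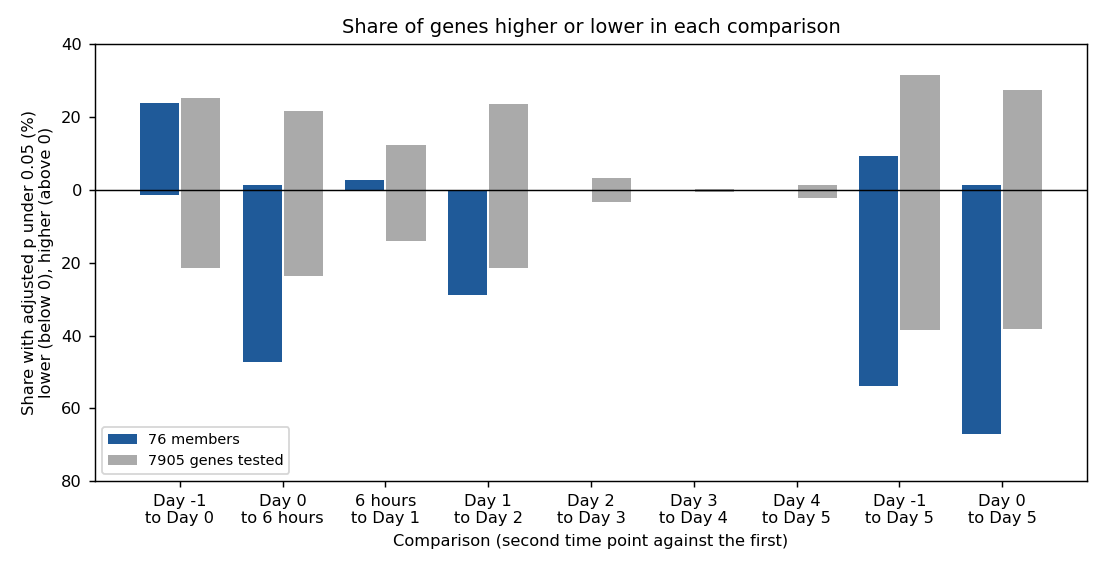
Share of genes past an adjusted p of 0.05 (y axis, in percent) that were higher (above 0) or lower (below 0) at the later time point of each comparison (x axis), for the 76 members (blue) and for all 7905 genes tested (grey). The falls from Day 0 to 6 hours and in both comparisons with Day 5 are the tallest blue bars, with 36, 41 and 51 members, and after Day 2 there is no blue bar between neighbouring days.

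Over the whole course, from Day -1 to Day 5, 41 members fell and 7 rose, where 38.4% of all genes fell and 31.6% rose. The median change was -0.50 against -0.08. From Day 0, the high point, 51 fell and 1 rose, where 38.2% fell and 27.2% rose, with a median of -0.72 against -0.12. Both comparisons share the arrays of Day 5. The counts rest in part on the probe set chosen. In each comparison, of 28 other probe sets of 20 members, 7 were called along with the chosen one and 7 had the opposite sign. No pair was called in opposite directions. From Day -1 the arrays did not overlap for 24 members that were lower and 5 that were higher, against 36.8% and 30.9% of all genes. From Day 0 this held for 50 lower and 1 higher, against 40.6% and 28.8%. The count of 48 from Day -1 was 30 without replicate 3 of Day -1 and 29 without replicate 2 of Day 5. The count of 52 from Day 0 stayed between 44 and 62 whichever array was left out. The 41 falls from Day -1 also depended on the processing. They were 26 with no filter on level, 27 with centring on the median, 29 with a separate fit and 33 with quantile normalization. With the replicate number as a block they were 38, and with another choice of probe set 42. The 51 falls from Day 0 stayed between 45 and 54. The share of all genes that fell under these settings was not counted, so the excess of falls from Day -1 is uncertain.

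Among the conserved proteins of the large subunit, 15 of 29 fell from Day -1 to Day 5 and 4 rose, and 20 fell and 1 rose from Day 0. The falls are 51.7% and 69.0% of the class, beside 38.4% and 38.2% of all genes. Mrpl34 changed most. Its intensities were 669.8, 423 and 607 on Day -1, 545, 707 and 673 on Day 0, and 160.4, 139 and 262 on Day 5. Every Day 5 array lay below every array of both earlier days, and Day 5 was 3.09-fold below Day -1 and 3.54-fold below Day 0 (log2 -1.63 and -1.82, SE 0.30, adjusted p = 7.07e-05 and 2.38e-05). Mrpl18 fell 2.64-fold from Day -1 to 517, 422 and 604, with the lowest adjusted p of the members (4.15e-07). Mrpl20, known from bacteria as an assembly protein of the large subunit, went from 1084, 710.3 and 937 on Day -1 to 292, 272 and 521 on Day 5 (2.59-fold lower, adjusted p = 0.000114). Mrpl12 is the stalk protein that recruits translation factors and has been described to bind the mitochondrial RNA polymerase. It went from 1557, 1352 and 1863 on Day -1 to 690.2, 574 and 902 on Day 5 (2.22-fold lower, adjusted p = 1.29e-05). All 4 genes were lower on every Day 5 array than on any Day -1 array. Mrpl55 and Mrpl14 fell 2.79-fold and 2.45-fold from Day 0, and Mrpl55 ended at 55.8, 42.9 and 78.0, below the level of 100.

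The rises of this class from Day -1 to Day 5 were those of Mrpl23, Mrpl13, Mrpl24 and Mrpl33. Mrpl13 rose from 1998, 1457 and 1846 to 2291, 2527 and 3209 (1.51-fold, log2 0.60, adjusted p = 0.0015), with no overlap. It was also the 1 member called higher than on Day 0 (1915, 1840 and 2129, log2 0.44, adjusted p = 0.0155), a call lost without replicate 2 of Day 0 (adjusted p = 0.0566) or replicate 3 of Day 5 (0.0993). Its other probe sets differed. From Day -1 to Day 5 1 of them rose (log2 0.47, adjusted p = 0.00272) and the other was at 0.11 (adjusted p = 0.606). From Day 0 the same pair gave 0.31 (adjusted p = 0.0367) and -0.38 (adjusted p = 0.0822), so the Mrpl13 rises rest on 2 of 3 probe sets. Mrpl24 rose 1.50-fold from Day -1 (adjusted p = 0.000684) to 1473, 1382 and 1892. Mrpl23 rose 1.67-fold (adjusted p = 0.011) to 744, 571 and 1118, and its call was lost without replicate 2 of Day -1 (adjusted p = 0.0616) or replicate 3 of Day 5 (0.0881). Both ended above all Day -1 arrays. For Mrpl33, a small zinc-binding protein in many bacteria, the call (1.34-fold, adjusted p = 0.0426) was lost without replicate 2 of Day -1, replicate 3 of Day -1 or replicate 3 of Day 5 (adjusted p of 0.102 to 0.278).

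**Figure D5:**
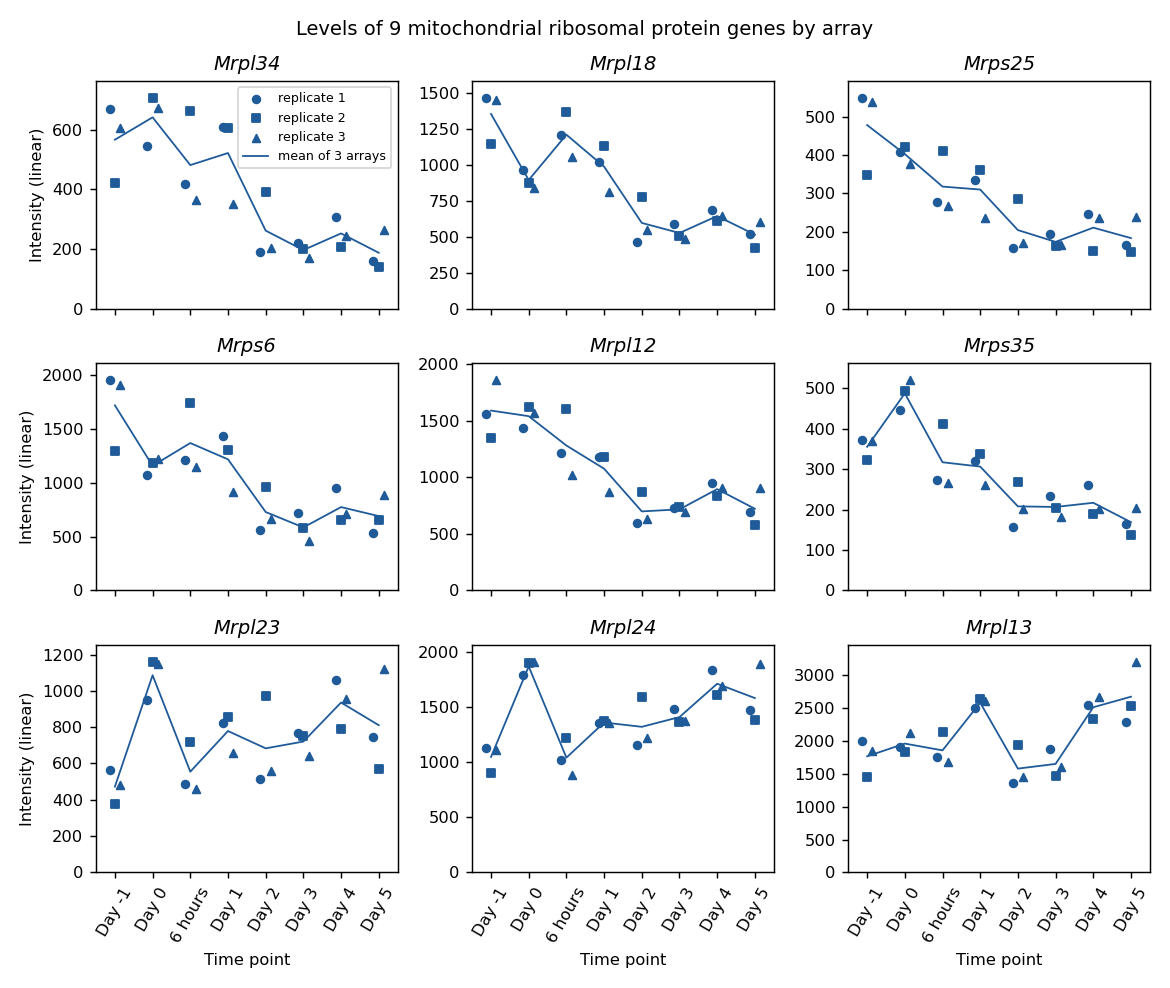
Intensity on a linear scale (y axis, from 0) of 9 members by time point (x axis), with the 3 arrays as symbols and their mean as a line. The upper 6 genes end on Day 5 below every array of Day -1, as Mrpl34 at 139 to 262 against 423 to 670, and the lower 3, Mrpl23, Mrpl24 and Mrpl13, end above every array of Day -1.

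The mitochondria-specific proteins of the large subunit had 11 falls and no rise among 20 from Day -1 to Day 5, and 12 falls from Day 0. These falls are 55% and 60% of the class, again beside 38.4% and 38.2% of all genes. Mrpl40 was at 505, 350.1 and 457 on Day -1, at 439, 581 and 506 on Day 0 and at 153, 148 and 293 on Day 5. This made it 2.30-fold and 2.69-fold lower on Day 5, with no overlap with either day. Mrpl54 fell 2.43-fold from Day 0, from 294, 378 and 406 to 122, 119 and 216. Mrps30, which is counted here despite its symbol, had means of 599, 585, 643, 662, 703 and 634 from 6 hours to Day 5, each below its Day 0 mean of 904 (Day 5 against Day 0, log2 -0.52, SE 0.11, adjusted p = 0.000335). The 3 smallest ranges of the 76 were those of Mrpl50 (1.31-fold), Mrpl9 (1.33-fold) and Mrpl44 (1.33-fold), of which Mrpl9 is a conserved protein, and Mrpl9 and Mrpl44 did not pass the F test. Mrpl44 had a lowest mean of 332 at 6 hours and a highest of 442 on Day 4. In the first 6 hours this probe set changed by log2 -0.27 (adjusted p = 0.158). Its other probe sets fell past the threshold there, by -0.34 (adjusted p = 0.0302) and -0.74 (adjusted p = 0.0143). The small range of Mrpl44 thus rests on the probe set chosen.

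Of 16 conserved proteins of the small subunit 8 fell and 2 rose from Day -1 to Day 5, and 12 fell from Day 0. That is 50% and 75% lower, where 38.4% and 38.2% of all genes fell, and 12.5% higher from Day -1, where 31.6% of all genes rose. Mrps6, whose bacterial counterpart sits on the platform of the small subunit, fell from 1953, 1291 and 1904 on Day -1 to 529.8, 651 and 887 on Day 5 (2.50-fold lower, log2 -1.32, SE 0.24, adjusted p = 7.28e-05), without overlap. Another probe set of the gene changed by -1.40. Mrps11 went from 179.9, 107 and 176 to 61.4, 53.2 and 91.8 (2.24-fold lower, adjusted p = 0.0023), and its neighbour Mrpl46 was 1.79-fold lower (adjusted p = 0.00542). The rises were those of Mrps9 and Mrps10. Mrps9 went from 232, 193 and 249 to 297, 293 and 349.7 (1.40-fold, adjusted p = 0.000822), while its other probe sets changed by 0.05 and 0.16 (adjusted p = 0.530 and 0.133). Mrps10 went from 828, 626 and 788 to 947, 883 and 1259 (1.37-fold, adjusted p = 0.0186), a call lost without replicate 2 of Day -1 or replicate 3 of Day 5 (adjusted p of 0.103 and 0.122).

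Among 10 mitochondria-specific proteins of the small subunit 6 fell and 1 rose from Day -1 to Day 5, and 6 fell from Day 0. The falls are 60% of the class in both comparisons, beside 38.4% and 38.2% of all genes. Mrps25 had means of 478, 403, 318, 310.2, 205 and 174 from Day -1 to Day 3, and stood at 167, 146 and 238 on Day 5 against 549, 347 and 539 on Day -1 (2.61-fold lower, adjusted p = 7.53e-05). No neighbouring interval of this course passed the threshold, the closest being Day 1 to Day 2 (adjusted p = 0.0509). Mrps35 stood at 447, 493 and 521 on Day 0 and ended at 163, 138 and 205, 2.92-fold lower (log2 -1.55, SE 0.20), with the lowest adjusted p of the members from Day 0 (9.72e-07). Mrps23 rose 1.29-fold from Day -1 (adjusted p = 0.0314), a call lost without replicate 2 of Day -1, replicate 1 of Day 5 or replicate 3 of Day 5 (adjusted p of 0.0672 to 0.21).

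The 3 paralogs related to bacterial S18 were compared over the same days. Mrps18b was at 883, 672 and 913 on Day -1 and at 458, 365 and 552 on Day 5 (log2 -0.85, SE 0.17, adjusted p = 0.000201), all Day 5 arrays lying below those of Day -1. Mrps18a rose from 619, 440.3 and 629 on Day -1 to 898, 988 and 1006 on Day 0 (log2 0.79, SE 0.20, adjusted p = 0.00288). It was at 603, 575 and 944 on Day 5, not past the threshold against Day -1 (0.31, adjusted p = 0.164). Mrps18c was at 867, 569.6 and 749 on Day -1 and at 630.2, 567 and 1068 on Day 5 (0.01, SE 0.26, adjusted p = 0.963). The difference between the paralogs was not tested. Mrps36, named with this family but a subunit of 2-oxoglutarate dehydrogenase, went from 352, 215 and 289 on Day -1 to 124, 105 and 197 on Day 5 (log2 -1.03, SE 0.31, adjusted p = 0.00589), without overlap.

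Other genes of the mitochondrial translation system were followed as lists. Of the 4 ribosomal proteins with other symbols that were tested, 1 was called lower in the first 6 hours and 1 from Day 0 to Day 5, each time Dap3, a GTP-binding protein of the small subunit. It stood at 751 ± 58.4 (SD, n = 3) on Day 0, 549 ± 64.3 at 6 hours and 421 ± 36.5 on Day 5 (log2 -0.84 from Day 0, adjusted p = 3.28e-06). Ptcd3, Chchd1 and Gadd45gip1 had no call in either, and Aurkaip1 had no probe set of its own. Among all genes 23.6% fell in the first 6 hours and 38.2% from Day 0 to Day 5. The median of the 4 proteins was -0.07 in the first 6 hours, with 2 of them higher, and -0.22 from Day 0 to Day 5. Of 12 translation factors 5 fell and 1 rose in the first 6 hours, where 23.6% of all genes fell and 21.5% rose. Their median change was -0.03, beside -0.48 for the members, and 6 of the 12 were higher at 6 hours. This list thus had no common direction. Mrrf, the ribosome recycling factor, went from 243 ± 36.6 on Day -1 to 399 ± 38.0 on Day 0 and 199 ± 30.4 at 6 hours. Oxa1l, which inserts the new proteins into the inner membrane, went from 204 ± 14.3 to 311 ± 5.5 and 199 ± 16.4. The factor that rose was Gfm1, an elongation factor, with 805 ± 9.8, 469 ± 16.5 and 762 ± 34.3 (adjusted p = 6.67e-07 and 3.58e-06), so Day 0 was its low point as it was for Mrpl18 among these 3 time points. Of 15 genes of ribosome assembly and rRNA maturation 7 fell and 3 rose in the first 6 hours, beside 23.6% and 21.5% of all genes. Their median change was -0.31.

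Of 16 listed regulators of mitochondrial gene expression 10 were tested, and Nrf1, Ppargc1a and Ppargc1b did not reach the level. Myc, a growth regulator whose targets include genes of ribosomes, went from 432 ± 10.5 on Day -1 to 669.6 ± 15.9 on Day 0 and 301 ± 33.8 at 6 hours (adjusted p = 2.36e-05 and 1.61e-08), and was at 569 ± 45.6 on Day 5. Gabpa and Gabpb1 encode the subunits of the factor behind the GABP/ETS motif. Gabpb1 went from 185 ± 21.2 to 113 ± 1.6 and 168 ± 3.5 (adjusted p = 0.000123 and 0.00104), and Gabpa from 429 ± 71.2 to 319.7 ± 21.3 and 518 ± 105 (0.0371 and 0.00193). Pprc1, a relative of the PGC-1 coactivators, had 466 ± 108, 281 ± 15.1 and 461 ± 82.5 (0.00462 and 0.00542). These 3 genes thus fell and then rose. Among the members, 16 were called higher on Day 0 and then lower at 6 hours, 20 were called only for the fall, 2 only for the rise, and Mrpl18 fell and then rose. Taken singly, 25.2% of all genes were called for the rise and 23.6% for the fall. The share of all genes called for both was not counted. Both calls use the same Day 0 arrays, so a deviation of those arrays alone would give a rise and then a fall. Tfam, which packs and transcribes the mitochondrial genome, fell from 766 ± 16.7 on Day 1 to 598 ± 71.3 on Day 2 (adjusted p = 0.00252). The part of any regulator in the members' changes was not tested.

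Larger lists were set beside the members, first the subunits of oxidative phosphorylation, the partners of the proteins made on this ribosome. Between neighbouring time points the median of the 72 subunits had the sign of the median member's change. The median of 40 cytosolic ribosomal proteins had that sign in each interval as well. For the subunits it was 0.44 from Day -1 to Day 0, with 37 called higher and 1 lower, where 25.2% of all genes rose and 21.5% fell. In the first 6 hours it was -0.39, with 1 higher and 33 lower, beside 21.5% and 23.6% of all genes. From 6 hours to Day 1 it was 0.23 (7 higher, 1 lower, beside 12.3% and 14.1%). From Day 1 to Day 2 it was -0.24 (3 higher, 18 lower, beside 23.5% and 21.4%). Later medians of the subunits were 0.02, 0.26 and -0.12, with 2 called, higher, from Day 2 to Day 3, beside 3.21% of all genes, and none after. From Day -1 to Day 5 the median of the 72 subunits was 0.12, with 16 higher and 6 lower, beside -0.50 for the 76 members, with 7 higher and 41 lower. Among all genes 31.6% were higher and 38.4% lower. From Day 0 to Day 5 the subunits had a median of -0.30, with 4 higher and 23 lower, where 27.2% of all genes rose and 38.2% fell. The 40 cytosolic ribosomal proteins tested had medians of 0.03 and -0.11, with 8 higher and 4 lower from Day -1 and 1 higher and 16 lower from Day 0. Between neighbouring time points their medians were 0.16, -0.11, 0.06, -0.12, 0.01, 0.12 and -0.02, in order of time. The difference between the lists was not tested. The summed proliferation markers were lower on Day 0 than on Day -1 and higher again at 6 hours, opposite to the median member, and then fell to Day 5. Their part in the members' changes was not tested.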

How the data were processed

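RNA of C2C12 cells was measured on 24 Affymetrix mouse 430 version 2 arrays. The authors made the deposited values with GC-RMA, took them back from the log2 scale and brought the 2% trimmed mean of every array to 150, so the file holds linear intensities of 45101 probe sets. The submitters' processing notes also name MAS5, with no role given, and versions are not given in the sources used here. Columns of other series numbered 0.

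The array annotation gave 1 gene for 34958 probe sets, several for 932 and none for 9211. All 76 member genes were found in RefSeq by Entrez ID. From the deposited intensities, log2 values were taken with no pseudocount. Tests covered the probe sets whose mean reached 100 at 1 time point or more, 13735 in all, without the control probe sets. One limma fit (version 3.58.1, R 4.3.3) of 8 time points to 24 arrays gave moderated t and F tests, adjusted by the Benjamini-Hochberg method over all probe sets tested, with a threshold of 0.05. A gene was counted by its probe set with the highest mean. A fold is 2 raised to the mean log2 difference, and SD is over 3 arrays. The fit was also run on simulated data and read for Day 1 to Day 2. Its noise was drawn independently for each probe set. That run therefore cannot speak to counts of members that deviate together on an array. Tables and figures were made with Python 3.11.15, pandas 2.3.3 and matplotlib 3.10.9. Promoters came from a RefSeq table of GRCm38.p6.

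The members and all lists were chosen with earlier results of these data known. Members were named by rule: the 8 largest rises and falls from Day -1 and from Day 0 to Day 5 among those past the threshold, the 3 rises and 3 falls with the lowest adjusted p in each neighbouring interval, the 5 largest and 3 smallest ranges, the S18 paralogs, Mrps30, Mrps36, Mrpl12 and the members closest to the level. In the other lists up to 2 genes a direction with the lowest adjusted p were named, and a few genes always. Mrpl46, Gabpa, Gfm1 and Oxa1l were named after their values were seen. Alternatives were a separate fit to the 6 arrays of a comparison, the replicate number as a block, no filter on level, quantile normalization, centring on the median, another choice of probe set, and leaving out each array or each replicate number.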

Additional observations from a re-analysis of the deposited data

How the results depend on the processing

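Over 33 alternatives, the 69 changes of named members gave 2277 values, of which 2103 stayed on their side of the threshold, 174 lost it and 0 reversed. All 69 had been picked among calls of the main fit, so none could gain the threshold. Leaving out an array of a time point outside the comparison also keeps the log2 change as it was. These totals therefore do not measure how firm the calls are. Of 297 medians 6 changed sign: from 6 hours to Day 1 to -0.063 without replicate 3 of 6 hours (range over single omissions -0.063 to 0.23), -0.00046 without replicate 2 of Day 1 and -0.050 without all replicates numbered 1, and from Day 2 to Day 3 to -0.074 without replicate 1 of Day 2, -0.013 without replicate 1 of Day 3 and -0.14 without all replicates numbered 1 (range -0.14 to 0.27). With no filter on level, which tests more probe sets, 20 members were called from Day 0 to 6 hours, 0 from 6 hours to Day 1 and 31 from Day -1 to Day 5. A separate fit gave 1 from 6 hours to Day 1.

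With 1 array or 1 replicate number left out, the counts ranged from 28 to 75 for the F test, 9 to 22 for Day -1 to Day 0, 3 to 54 for Day 0 to 6 hours, 0 to 5 for 6 hours to Day 1, 1 to 48 for Day 1 to Day 2, 0 to 1 for each of the later neighbouring intervals, 21 to 51 for Day -1 to Day 5 and 39 to 62 for Day 0 to Day 5. The cause was not tested. Same-numbered replicates did not regularly deviate together (r of -0.56 to 0.55, all over 0.1 in 1 of 9 comparisons). The deviations of 3 arrays from their own mean depend on each other, so these r cannot settle whether the numbers pair the samples. With the replicate number as a block 1 member was called from 6 hours to Day 1, and the other counts stayed within 1.5 times.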
